A study of Homo sapiens with 5 samples.

Results

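The genes described are 9 that encode proteins of the epithelial cell surface and the apical membrane, namely MAL2, EPCAM, CD24, MUC1, ST14, SPINT1, SPINT2, PRSS8 and RAB25. They were chosen by name, and all 9 were found among the 17958 genes of one deposited table and the 18417 genes of the other. Each is taken from the brightest probe annotated with that symbol alone.

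RNA came from MCF12A, a human breast epithelial cell line that forms no tumours. All cultures were monolayers in DMEM/F12 with horse serum, epidermal growth factor, hydrocortisone, insulin and cholera toxin. Each of 5 groups was measured on 1 Affymetrix Gene ST array. The first table held cells kept for 4 weeks in 2.5% ethanol, cells grown with 1% acetaldehyde, which cells make from ethanol by oxidation, also for 4 weeks, and their untreated control. The second table held a soft agar clone and the control labelled for it. The clone is a single clone that grew without anchorage after 4 weeks in ethanol, labelled 2.5% in one place and 2.5 mM in another, and the protocol has it exposed to ethanol again as a monolayer. The labels call its control untreated and yet also tag it with soft agar selection. The protocols name one array design for 1-week exposures and another for 4-week exposures, yet both tables are labelled with 4 weeks and come from different designs, so the exposure time rests on the sample labels alone. With 1 array per group there is no spread between cultures, so no test was possible, every fold compares 2 single arrays, and their number limits the precision. The array design cannot be told apart from the cultures, so levels are compared only within a table.

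Epithelial cells separate an apical face from a basolateral one and hold distinct proteins at each. The type II transmembrane protease matriptase (ST14) and the membrane-anchored protease prostasin (PRSS8) work at this surface under the Kunitz inhibitors HAI-1 (SPINT1) and HAI-2 (SPINT2). MAL2 carries cargo to the apical membrane, and RAB25, a small GTPase of the RAB11 family, directs apical recycling. EPCAM is a cell adhesion molecule, CD24 a small lipid-anchored sialoglycoprotein and MUC1 a large apical mucin. Breast epithelial cells of luminal type are known for CD24, EPCAM and MUC1.

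Promoter windows are shown because the 9 genes were lower together in 2 comparisons below. The transcription factor genes ZEB1 and ZEB2 were higher in the same arrays. Both were also higher than control in acetaldehyde, where none of the 9 was 2-fold lower. Whether these factors act on the 9 genes was not tested. RefSeq promoter sequences of GRCh38.p14, 250 bases before the start of a gene to 50 after it, were matched by symbol for 4 of the 9 genes, with 8 windows in all. Capitals mark the E-box CAGGTG, read on both strands (CACCTG on the other), which is the motif bound by ZEB and Snail factors. The windows of MUC1 (chr1:155192866-155193165, minus strand), RAB25 (chr1:156060910-156061209, plus strand) and SPINT1 (chr15:40844227-40844526, plus strand) read, 5′ to 3′:
MUC1: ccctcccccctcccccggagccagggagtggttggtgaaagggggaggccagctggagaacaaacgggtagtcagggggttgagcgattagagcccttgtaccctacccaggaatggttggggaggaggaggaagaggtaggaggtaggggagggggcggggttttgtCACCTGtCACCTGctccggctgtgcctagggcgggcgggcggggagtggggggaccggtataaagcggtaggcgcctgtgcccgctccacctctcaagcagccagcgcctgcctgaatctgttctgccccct
RAB25: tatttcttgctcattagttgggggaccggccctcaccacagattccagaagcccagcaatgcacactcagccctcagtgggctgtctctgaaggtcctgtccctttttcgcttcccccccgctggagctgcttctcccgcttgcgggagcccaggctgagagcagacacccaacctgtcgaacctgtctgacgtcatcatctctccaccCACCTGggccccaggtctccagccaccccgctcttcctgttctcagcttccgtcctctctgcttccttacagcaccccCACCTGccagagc
SPINT1: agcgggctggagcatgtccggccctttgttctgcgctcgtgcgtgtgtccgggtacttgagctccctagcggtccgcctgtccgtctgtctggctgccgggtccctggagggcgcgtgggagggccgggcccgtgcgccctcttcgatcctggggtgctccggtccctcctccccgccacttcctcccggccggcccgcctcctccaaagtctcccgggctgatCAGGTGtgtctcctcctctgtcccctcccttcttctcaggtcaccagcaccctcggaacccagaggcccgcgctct
The MUC1 window holds 2 matches, beginning at -82 and -75 from the start. The RAB25 window also holds 2, beginning at -41 and 38, and the SPINT1 window holds 1, at -26. Of 35116 promoter windows of this length, 20.6% hold at least 1 match and 3.49% hold 2 or more. A second MUC1 window, shifted by a few bases, holds the same 2 matches. A second SPINT1 window holds 0, and the 3 CD24 windows hold 0, 0 and 1, the last at -249. The Grainyhead-like motif AACNGGTT (AACCNGTT on the other strand), whose factors are known for epithelial gene expression, had 0 matches in the 8 windows, and 1.73% of all windows hold one. Each window printed holds a match, while others of the 8 hold none. A match is a description of the letters and not a measured site.

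On the deposited values all 9 genes were at least 2-fold lower after 4 weeks in ethanol than in the untreated control, and all 9 in the soft agar clone than in its control. With dim values raised to an intensity floor, described below, 8 of the 9 passed 2-fold in ethanol, RAB25 being the exception, and 9 in the clone. In acetaldehyde none of the 9 was 2-fold away from control, where 0.0536% of all genes were lower and 1.03% higher. The shares of all genes that were lower were 2.44% in ethanol and 5.83% in the clone. Fewer cells carrying a transcript and less transcript per cell cannot be told apart in these bulk RNA samples.

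**Figure D1:**
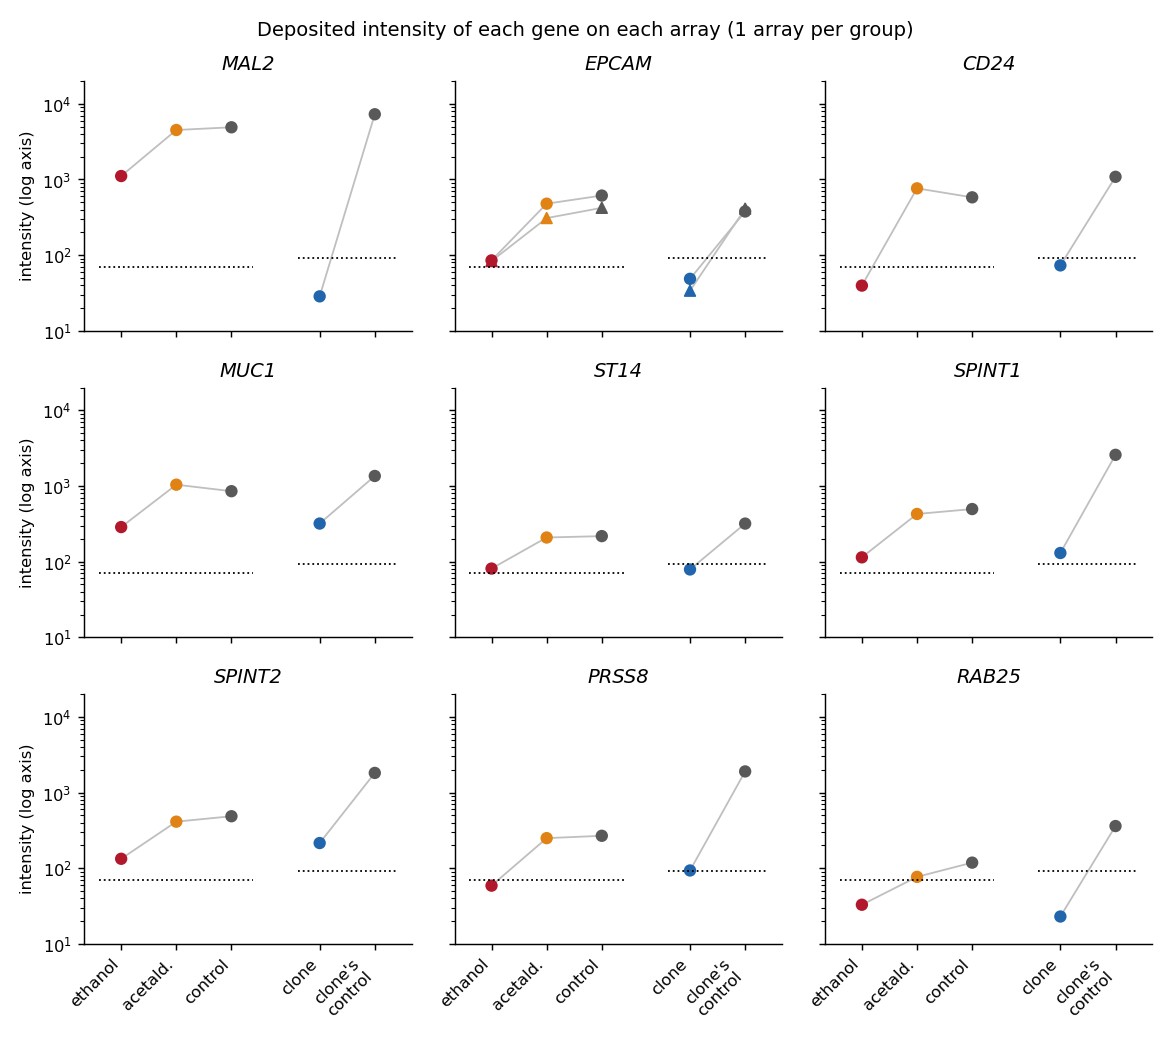
Intensity of each gene on each of the 5 arrays, on a log axis, with colour for the ethanol, acetaldehyde and clone arrays and grey for the 2 controls. Circles are the brightest probe, triangles the second EPCAM probe, and dotted lines the floor of 70.2 or 92.0; the ethanol array is the lowest of its table in each panel, and the clone lies below its control in each.

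Among the surface glycoproteins, CD24 stood furthest from control in ethanol. Its intensity was 39.6 in ethanol and 764 in acetaldehyde, against 581 in the untreated control, and 73.2 in the clone, against 1085 in its control. Values under the median intensity of a table, 70.2 in the first and 92.0 in the second, were treated as dim. This median serves as a floor and is not a measured background. CD24 was dim in both the ethanol array and the clone, so its folds are bounds, at least 8.27-fold lower in ethanol and at least 11.8-fold lower in the clone. On the deposited values the log2 differences were -3.87 and -3.89. The CD24 probe set is uncertain, since the RefSeq gene table lists several CD24 pseudogenes.

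EPCAM had an intensity of 85.3 in ethanol and 479 in acetaldehyde, against 613 in the untreated control. That is 7.19-fold lower in ethanol, while acetaldehyde had a log2 difference of -0.36. The clone had 48.7, against 377.5 in its control, at least 4.10-fold lower. EPCAM is the only one of the 9 with a second probe of its own. It read 83.6 in ethanol and 309 in acetaldehyde, against 422 in the untreated control, and 33.9 in the clone, against 411 in its control. Both probes thus put ethanol and the clone below their controls.

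MUC1 was above the floor on every array. It had 287 in ethanol and 1041 in acetaldehyde, against 854 in the untreated control, and 319 in the clone, against 1357 in its control. It was 2.98-fold lower in ethanol and 4.25-fold lower in the clone.

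Of the apical transport genes, MAL2 separated the 2 tables most. Its intensity was 1111 in ethanol and 4508 in acetaldehyde, against 4895 in the untreated control, which is 4.41-fold lower in ethanol. In the clone it was 28.5, against 7279 in its control, at least 79.1-fold lower. The log2 difference of -7.99 was the most negative of the 12262 genes past the floor in that comparison, whereas its difference of -2.14 in ethanol ranked at 70 from the lowest of 11264.

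RAB25 had an intensity under the floor in ethanol and in the clone. It read 32.9 in ethanol and 76.8 in acetaldehyde, against 118 in the untreated control, and 23.0 in the clone, against 360 in its control. On the deposited values ethanol was lower by a log2 difference of -1.85, but as the ethanol array lies under the floor the fold is bounded only at 1.69-fold or more. In the clone it was at least 3.92-fold lower. RAB25 also had the most negative acetaldehyde difference of the 9, -0.62, at rank 38 from the lowest of 11194 genes.

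In the protease network, both proteases and both inhibitors were lower in ethanol and in the clone. The protease gene ST14 had the smallest differences. It read 81.1 in ethanol and 209 in acetaldehyde, against 218 in the untreated control, and 78.9 in the clone, against 319 in its control. These are 2.68-fold lower in ethanol and at least 3.46-fold lower in the clone. PRSS8 read 58.8 in ethanol and 249 in acetaldehyde, against 268 in the untreated control, and 93.3 in the clone, against 1900 in its control. It was at least 3.82-fold lower in ethanol and 20.4-fold lower in the clone, where it lay just above the floor.

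The inhibitor genes differed by more than ST14. SPINT1 read 114 in ethanol and 427 in acetaldehyde, against 496 in the untreated control, and 130 in the clone, against 2582 in its control. It was 4.35-fold lower in ethanol and 19.8-fold lower in the clone. SPINT2 read 133 in ethanol and 412 in acetaldehyde, against 486 in the untreated control, and 215 in the clone, against 1815 in its control. It was 3.65-fold lower in ethanol and 8.45-fold lower in the clone. The log2 difference of SPINT1 minus that of ST14 was -0.70 in ethanol and -2.30 in the clone. For SPINT2 minus ST14 the values were -0.44 in ethanol and -1.07 in the clone. For PRSS8 minus ST14 they were -0.76 and -2.34, in the same order. ST14 was under the floor in the clone. On the deposited values SPINT1 minus PRSS8 was 0.07 in ethanol and 0.04 in the clone. PRSS8 was under the floor in ethanol, and raised to it had a log2 difference of -1.93, against -2.12 for SPINT1.

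**Figure D2:**
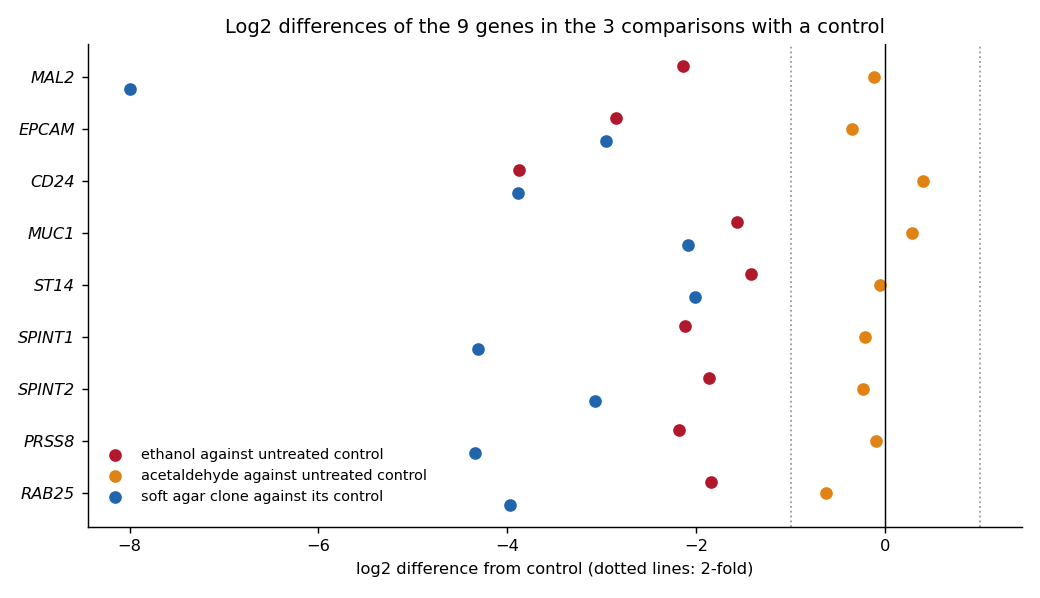
Log2 difference from control of each of the 9 genes in ethanol (red), acetaldehyde (orange) and the clone (blue), with dotted lines at 2-fold. On the deposited values every red and blue point lies beyond 2-fold lower and every orange point lies within 2-fold.

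Set against all genes, ethanol put 9 of the 9 at least 2-fold lower, where 2.44% of the 11264 genes past the floor were, and 0 of the 9 at least 2-fold higher, where 2.63% were. The median log2 difference of the 9 was -2.12, ranging between -3.87 and -1.42, and that of all genes was 0.00. ST14, the least changed, ranked at 161 from the lowest. With dim values raised to the floor, RAB25 had a log2 difference of -0.75 and 8 of the 9 passed 2-fold. In the clone 9 of the 9 were at least 2-fold lower, where 5.83% of 12262 genes were, and 0 of the 9 were higher, where 14.7% were. The median was -3.89, ranging between -7.99 and -2.01, against -0.02 for all genes, and the least changed, again ST14, ranked at 195 from the lowest. The genes were named with earlier results of these arrays known, so these counts describe them and support nothing further.

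**Figure D3:**
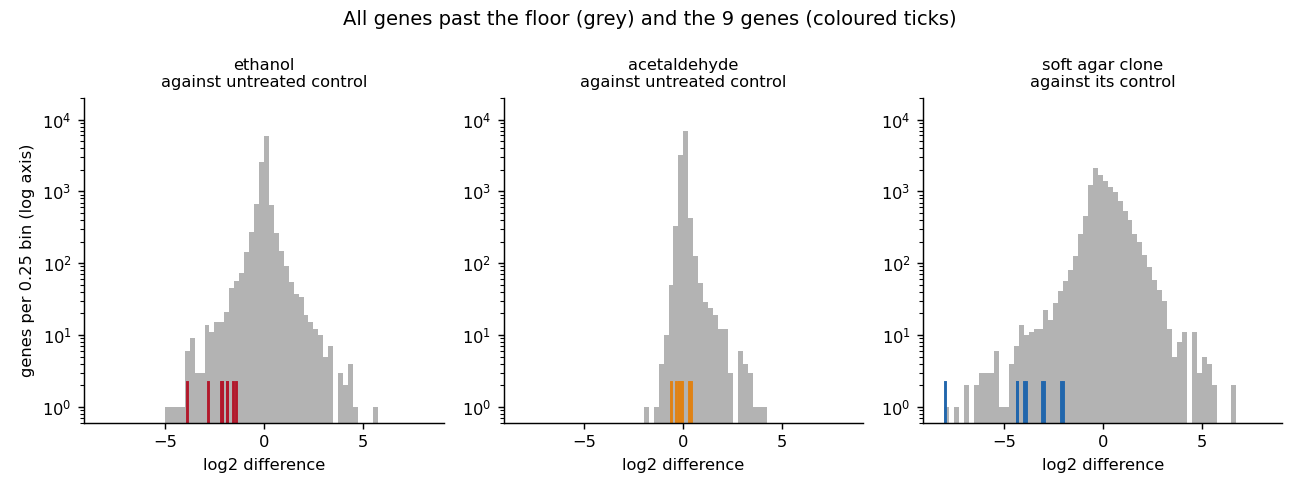
Number of genes per bin of log2 difference, on a log axis, for all genes past the floor in each comparison with a control, with coloured ticks for the 9 genes. The ticks lie in the lower tail for ethanol and the clone and within 2-fold of control for acetaldehyde. By rank among 11194 genes in acetaldehyde, RAB25 was still 38 and EPCAM 174 from the lowest, and CD24 was 399 from the highest.

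In acetaldehyde 0 of the 9 genes were at least 2-fold lower, where 0.0536% of 11194 genes were. None was 2-fold higher either, where 1.03% of genes were. The median was -0.12, with 7 genes below control and 2 above it. CD24 and MUC1 were the pair above control, with log2 differences of 0.39 and 0.29. After RAB25, the genes furthest below control were EPCAM at -0.36, SPINT2 at -0.24 and SPINT1 at -0.22. At 1.5-fold, RAB25 was the only gene of the 9 to be counted as lower.

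Acetaldehyde and ethanol were also compared directly, at doses that differ. Each of the 9 passed 2-fold upward in acetaldehyde, where 1.85% of 11221 genes did, with a median log2 difference of 1.90. Genes at least 2-fold lower in acetaldehyde than in ethanol made up 0.526%, and 0 of the 9 were among them. CD24 was at least 10.9-fold higher in acetaldehyde, EPCAM 5.61-fold, MAL2 4.06-fold and ST14 2.57-fold. RAB25 had a log2 difference of 1.22 on the deposited values, but its fold is bounded only at 1.09-fold or more, because the ethanol array lies under the floor. The 3 comparisons among these arrays share arrays, so they are not independent of each other. Among those arrays 43.9% of all probes had equal values in ethanol and control and 48.2% in acetaldehyde and control, within a log2 difference of 1e-06. None of the 9 genes had equal values in any pair of arrays.

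The ethanol and clone comparisons share no array. All 9 genes were in the 196 that were at least 2-fold lower in both, out of 10503 genes past the floor in both. Of those 10503 genes, 245 were lower in ethanol and 648 in the clone. The 196 made up 80.0% of the 245, 30.2% of the 648 and 1.87% of the 10503. On the deposited values of the brightest probe, the difference in the clone minus that in ethanol was -0.01 for CD24 and -0.11 for EPCAM. These rest on values under the floor, for CD24 in both arrays and for EPCAM in the clone. Raised to the floor, CD24 had -3.56 in the clone and -3.05 in ethanol, and EPCAM had -2.04 in the clone and -2.85 in ethanol. The second EPCAM probe had -3.60 in the clone and -2.34 in ethanol. For MUC1 and ST14 the same quantity was -0.51 and -0.59. SPINT2, RAB25, PRSS8 and SPINT1 had -1.21, -2.12, -2.16 and -2.19, and MAL2 had -5.85. Across all genes past the floor the standard deviation of the log2 differences was 0.97 in the clone and 0.50 in ethanol. Equal values were held by 1.02% of all probes in the clone and its control, against 43.9% in ethanol and control. The comparisons, and the shares of all genes counted in them, are thus not on one scale.

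**Figure D4:**
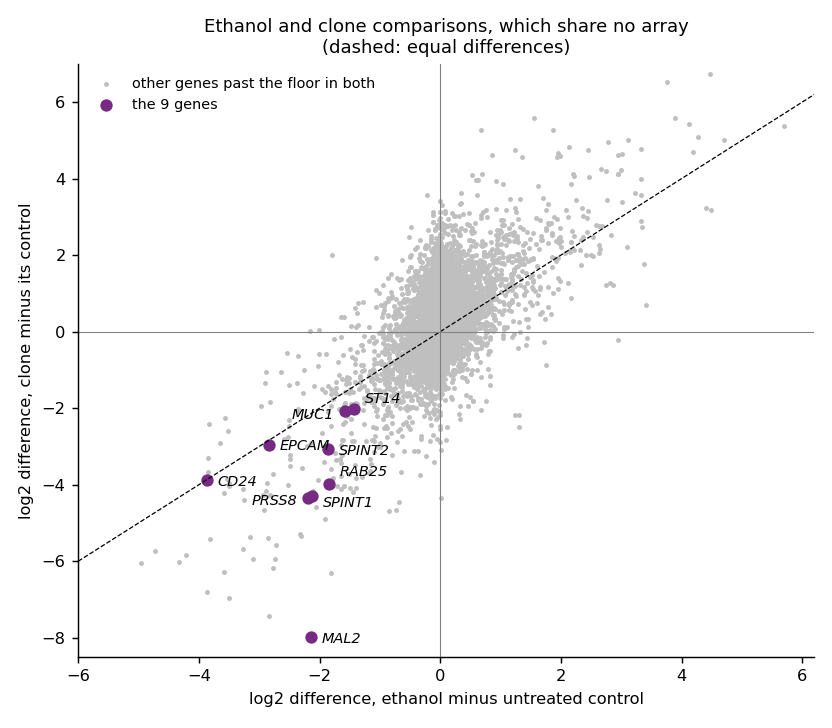
Log2 difference of each gene in the clone (vertical axis) against that in ethanol (horizontal axis) for the 10503 genes past the floor in both, with the 9 genes in purple and a dashed line where both are equal. MAL2 lies furthest below the dashed line among the 9; positions use deposited values of the brightest probe, and the clone values of MAL2, EPCAM, CD24, ST14 and RAB25 and the ethanol values of CD24, PRSS8 and RAB25 rest on arrays under the floor.

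Related genes, from lists chosen by name, were read in the same way. Their counts stand beside shares over all genes of 2.44% lower and 2.63% higher in ethanol, 0.0536% and 1.03% in acetaldehyde, and 5.83% and 14.7% in the clone. Counts and shares both use deposited values, so some counted genes are bounded only under 2-fold where the dimmer array lies under the floor. Such genes include MYO5C, at least 1.21-fold lower in ethanol. In the clone they include TMPRSS4 and MYO5B, at least 1.29 and 1.79-fold lower, and RAB27A, at least 1.68-fold higher. Of 13 other epithelial surface glycoprotein genes past the floor, ethanol put 7 at least 2-fold lower and 0 higher. Their median log2 difference was -1.38. CXADR, the coxsackievirus receptor of tight junctions, was at least 12.9-fold lower. CLDN7, a claudin that binds EPCAM, was 5.73-fold lower, at 302 in ethanol against 1729 in the control. In acetaldehyde 0 of 13 passed 2-fold. The clone had 11 of 14 lower, 0 higher and a median of -1.98. CDH1, the E-cadherin gene, was under the floor there, at 43.6 against 920 in its control, and CLDN7 was 6.81-fold lower.

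In the wider protease network fewer genes passed 2-fold in ethanol. Of 10 of its genes past the floor, 1 was at least 2-fold lower in ethanol, SCNN1G, which encodes a subunit of the epithelial sodium channel that prostasin can activate. It was at least 2.15-fold lower, and the median of the 10 was -0.24. The clone had 6 of 13 lower, 1 higher and a median of -0.46. SCNN1B, another channel subunit, was 9.37-fold lower and SCNN1G at least 9.67-fold lower, while SCNN1A had a log2 difference of -0.46. MET, the receptor for hepatocyte growth factor, which is activated by proteases of this kind, was the 1 higher, at 1367 in the clone against 561 in its control. HGF itself was under the floor on every array.

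Apical transport and polarity genes were partly lower on the deposited values. In ethanol 5 of 20 were at least 2-fold lower, with a median of -0.34. In the clone 5 of 20 were, with a median of -0.67, and 0 were higher in either. MALL, a relative of MAL2, was 2.21-fold lower in ethanol and 3.58-fold lower in the clone. PATJ, a scaffold of the apical Crumbs complex, was 2.85-fold lower in ethanol and 2.55-fold lower in the clone. AP1M2, a sorting adaptor subunit of epithelial cells, was 2.39-fold lower in ethanol and at least 1.83-fold lower in the clone. By contrast, of 15 RAB11 recycling genes, RAB11A and RAB11B beside other RAB and membrane traffic genes, 0 passed 2-fold in ethanol or acetaldehyde. RAB11A, a widely expressed relative of RAB25, had a log2 difference of -0.10 in ethanol and -0.37 in the clone. In the clone 3 of 14 were higher, near the 14.7% of all genes, and 2 lower, with EHD3, an endosomal recycling gene, 4.09-fold higher and RAB27B, a secretory GTPase gene, 2.98-fold lower.

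**Figure D5:**
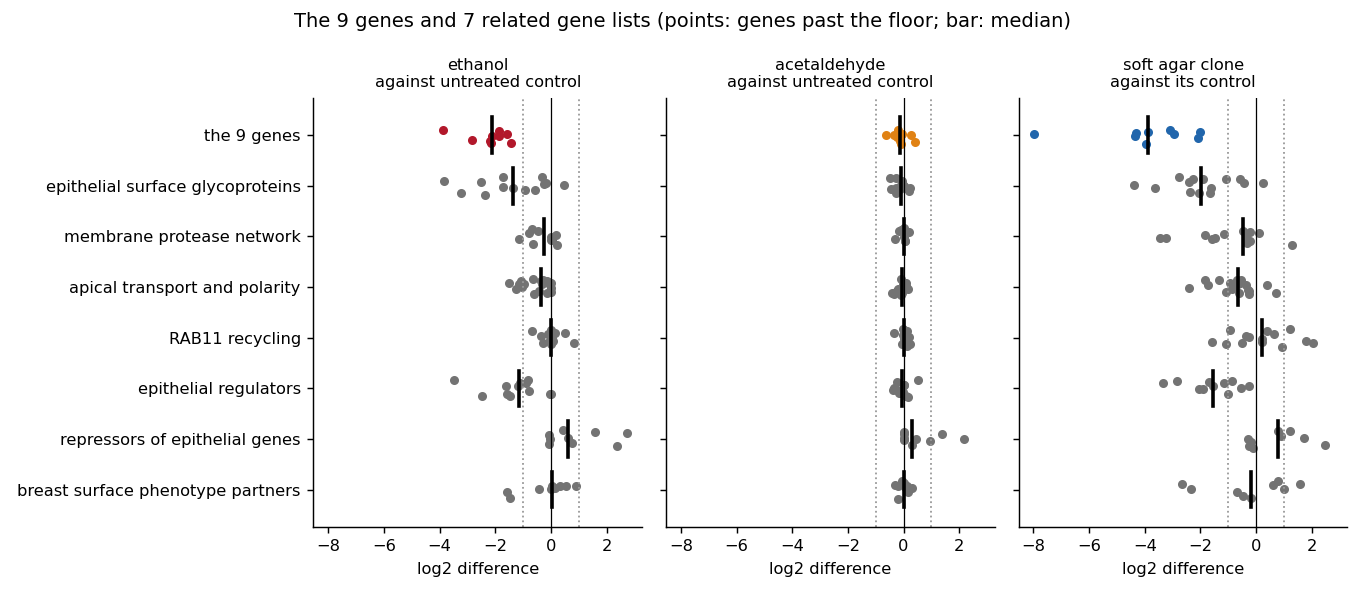
Log2 difference from control for the 9 genes (coloured) and for 7 related lists (grey), 1 point per gene past the floor and a black bar at each median, in ethanol, acetaldehyde and the clone. The 9 genes have the most negative median of the lists shown in ethanol and the clone, -2.12 and -3.89, and the repressors have the highest, 0.60 and 0.77.

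Regulators of epithelial genes were partly lower. Of 12 past the floor, ethanol put 7 at least 2-fold lower and 0 higher, and the median was -1.14. ESRP1, an epithelial splicing factor, read 197 in ethanol against 2212 in the control, and EHF, an ETS factor, was 5.61-fold lower. In the clone 8 of 11 were lower, with a median of -1.57, among them EHF at least 10.04-fold and KLF5 7.25-fold lower. In acetaldehyde 0 of 12 passed 2-fold, with a median of -0.05. GRHL2, a Grainyhead-like factor, had a log2 difference of -0.82 in ethanol on the deposited values. It read 51.6 there, under the floor, against 91.4 in the untreated control. It was under the floor in both arrays of the clone's table.

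Some repressors of epithelial genes were higher in all 3 comparisons with a control. Of 9, 3 were at least 2-fold higher in ethanol, 2 in acetaldehyde and 3 in the clone, with medians of 0.60, 0.31 and 0.77, and none was lower. TWIST1 read 1007 in ethanol and 670 in acetaldehyde, against 151 in the untreated control. ZEB2 read 318 in ethanol and 160 in acetaldehyde, against 61.5 in the untreated control. As that control value is under the floor, the bounds are 4.52-fold and 2.28-fold or more. ZEB1 read 229 in ethanol and 147 in acetaldehyde, against 75.7 in the untreated control. In the clone TWIST1 was 2.35-fold higher, and the bounds for ZEB2 and ZEB1 were 4.30-fold and 2.49-fold or more. SNAI2, a Snail factor gene, read 3458 in ethanol against 3578 in the untreated control. In the clone SNAI2 was within 2-fold of its control, but the repressor genes together summed to 10334, against 6261 in that control. In acetaldehyde 7 of the 9 genes were below control and none was 2-fold lower, where 0.0536% of all genes were. Whether the repressors act on the 9 was not tested.

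CD24 is often read together with CD44 on breast cells. CD44, a hyaluronan receptor, read 2782 in ethanol and 2651 in acetaldehyde, against 2736 in the untreated control, and 3800 in the clone, against 5241 in its control. Its log2 differences were 0.02, -0.05 and -0.46, so CD24 was lower in ethanol and in the clone with CD44 within 2-fold. Of 9 surface genes of the list that holds CD44 past the floor, 2 were at least 2-fold lower and 0 higher in ethanol. In the clone 2 were lower and 1 higher, beside 5.83% and 14.7% of all genes. The laminin receptor genes ITGB4 and ITGA6 were 2.99 and 2.78-fold lower in ethanol, and 5.12 and 6.33-fold lower in the clone. NT5E was the 1 higher in the clone, at 728 against 246 in its control, and ENG was 1.98-fold higher there.

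The labelled cell type was checked against its markers. Of 11 breast epithelial markers 9 were measured, and all 9 were past the floor in each comparison. In ethanol 4 were at least 2-fold lower and 1 higher, in acetaldehyde 0 were, and in the clone 5 were lower. Their summed intensity was 10961 in ethanol and 17491 in acetaldehyde, against 16820 in the untreated control, and 13791 in the clone, against 35901 in its control. Markers of other cells were also read, and their part in the results was not tested. Fibroblast markers summed to 645 in ethanol and 626 in acetaldehyde, against 538 in the untreated control. In the clone they summed to 2013, against 898 in its control. On the deposited values 4 of 6 past the floor were at least 2-fold higher in the clone, beside 14.7% of all genes. DCN, counted among them, is bounded only at 1.81-fold or more. Adipocyte markers summed to 2667 in ethanol and 549 in acetaldehyde, against 389 in the untreated control, and to 1684 in the clone, against 750.4 in its control, with FABP4 at least 30.8-fold higher in ethanol. FABP4 made up most of the difference in both, at 2163 against 41.8 in ethanol and 962 against 23.1 in the clone. Of those past the floor, 2 of 4 were at least 2-fold higher in ethanol, beside 2.63% of all genes. In the clone 1 of 5 was, beside 14.7%. LIPE was equal in ethanol and control. Leukocyte markers had 2 of 8 past the floor. Their sums were 1749 in ethanol and 1319 in acetaldehyde, against 986 in the untreated control, and 1350 in the clone, against 1435 in its control. CD68 made up most of the difference in ethanol, at 1484 against 721 in the untreated control, while CD14 was equal in both. Endothelial markers had 0 of 7 past the floor in the first table, with sums of 259 in ethanol and 249 in acetaldehyde, against 249 in the untreated control. In the table of the clone KDR was past the floor, 1 of 7, and the sums were 540 in the clone, against 368 in its control. No array lists a value of 0.

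The genes closest to the median profile of the 9 were sought by Euclidean distance over the 3 log2 differences from control, among 10445 genes past the floor in all 3. PKP1, a desmosomal plaque gene, was closest at a distance of 0.09, with log2 differences of -2.03 in ethanol, -0.11 in acetaldehyde and -3.88 in the clone. RAPGEFL1, GALNT3, PRRG4 and S100P followed at distances of 0.30, 0.38, 0.42 and 0.49. The profile rests on 3 values, of which 2 share a control.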

How the data were processed

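The authors deposited linear intensity values, and the submitters' processing notes name RMA, without a version. That method subtracts background, brings arrays to one distribution and combines the probes of a set robustly. Log2 of each intensity was taken, and differences were formed within a table only. Each array held 33297 probes. Probes with 1 symbol numbered 19181 in the table with 3 arrays and 19460 in the table with 2, from an annotation table of each design. A gene with several probes was taken from the one with the highest mean log2 value. A gene was counted where the higher array reached the table's median and the difference was at least 2-fold, and a fold against a dimmer array was bounded by that median. With 1 array per group no test was run. Lists of 12 kinds were used, and up to 4 genes per list were named by size of difference from control among those past the floor. GRHL2, HGF, RAB11A, SCNN1A, MET, CD44 and SNAI2 fall outside that rule where the text names them and were picked with their values in view. The members and the lists were chosen with earlier results of these data known. Calculations ran in Python 3.11.15 with pandas 2.3.3 and statsmodels 0.14.6 and were tested on simulated data. Alternatives changed the fold, the floor, the probe rule, centring, brightness correction (lowess), normalisation (quantile, repeated) or the handling of dim values.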

Additional observations from a re-analysis of the deposited data

Results flagged for a closer look

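CD24 and MUC1 were lower in ethanol and higher in acetaldehyde than in the same untreated control, the opposite direction for the 2 exposures. CD24 had log2 differences of -3.87 in ethanol and 0.39 in acetaldehyde, with acetaldehyde minus ethanol at 4.27. MUC1 had -1.57 and 0.29 in the same order, with acetaldehyde minus ethanol at 1.86. The acetaldehyde values lie within 2-fold of control. With 1 array per group the difference between exposures was not tested.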

How the results depend on the processing

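No paired analysis was possible because each group has 1 array. Under 10 alternatives, and 1 added after seeing the data (the brightest probe chosen by linear mean), the number of the 9 genes counted as lower was between 7 and 9 for ethanol and 9 throughout for the clone. The number counted as higher in acetaldehyde than in ethanol was between 7 and 9. For acetaldehyde it was 0, except 1 at 1.5-fold, RAB25. The count of 7 came from a floor at the upper quartile and from a 3-fold threshold. Of 81 recomputed log2 differences in each comparison, 81 kept their sign, but several alternatives could not have reversed one. A changed floor leaves a difference as it is, and raising dim values to the floor cannot reverse it. The probe rules can move only EPCAM. Beyond a small tolerance, 12 of 81 moved in ethanol, 10 in acetaldehyde, 33 in the clone and 12 between acetaldehyde and ethanol. RAB25 had the widest range, -3.97 to -1.97 in the clone, and ranged over -1.86 to -0.75 in ethanol. In the clone MAL2 ranged over -8.03 to -6.31 and EPCAM over -3.60 to -2.04. Over all genes, thresholds of 1.5-fold and 3-fold gave 576 and 130 lower in ethanol (275 as reported), 46 and 1 in acetaldehyde (6), and 1867 and 309 in the clone (715). For genes higher in acetaldehyde than in ethanol they gave 424 and 97 (208). Signal near the floor limits RAB25 most.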
